A study of Mus musculus with 16 samples.

Results

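The genes of respiratory complex I were compared between 2 genotypes of mouse in isolated ventricular myocytes. The members are the genes of the deposited count table whose symbol starts with Nduf, without those named as pseudogenes (-ps), and with a mean count of at least 10 over all animals. Of 35682 genes in the table, 54 had such a symbol. Of these, 3 carried the -ps ending and 4 fell short of the mean count, which left 47 members. They comprise 37 nuclear-encoded subunits, 8 assembly factors of the Ndufaf series, Ndufa4, and the row Ndufb4c. Ndufa4 keeps a complex I name but is a subunit of cytochrome c oxidase, and is given apart. The member nearest the threshold was Ndufaf2, with a mean count of 67.9. Just outside it lay Ndufa4l2, a relative of Ndufa4, with a mean count of 2.12 and 0 to 6 counts per animal. Ndufb11b (0 to 4 counts), Ndufa11b (0 to 1) and Ndufs6b (0 in all 16 animals) were further out. All 47 members passed the low-count filter of the test, so none dropped out because of its level.

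Complex I oxidises NADH from the tricarboxylic acid cycle and fatty acid oxidation, passes the electrons to ubiquinone and pumps protons across the inner mitochondrial membrane. Its L-shaped structure has a matrix arm, which holds the flavin, the iron-sulfur clusters and the ubiquinone site, and a membrane arm, which holds the proton pumps. Core subunits carry out the reaction and are encoded partly in the nucleus and partly in mitochondrial DNA. Accessory subunits surround and stabilise them, and assembly factors join modules of the complex without staying in it. Heart muscle is among the tissues richest in this complex.

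The WT group holds 8 wild-type mice and the B3AR-Tg group 8 littermates that carry a transgene of that name. Every animal of both groups had undergone TAC (transverse aortic constriction, a surgical narrowing of the aorta that loads the left ventricle), and cells were taken 9 weeks later, so no animal without the surgery is in the comparison. Hearts were digested by Langendorff perfusion and the adult ventricular myocytes were plated briefly before RNA extraction, ribosomal RNA depletion and stranded sequencing. The promoter of the transgene and the age and sex of the animals are not given in the sources used here. The row for mouse Adrb3, the gene of the beta-3 adrenergic receptor, held 0 to 4 counts in WT and 0 to 3 in B3AR-Tg; a transgene sequence outside the mouse annotation was not analysed here, so the counts do not check the genotype labels.

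Library totals ran from 5985335 to 14365864 counts. The 7 myocyte markers summed to 40022 to 50958 CPM (the deposited counts scaled to library size with TMM factors) in WT and 45913 to 53748 in B3AR-Tg, the highest of the marker lists, and the cells are labelled as myocytes. Of these 7, 5 had log2 fold changes above 0 and 2 below (Tnnt2 at -0.16 and Mb at -0.17). Ryr2, at 0.46, was the only myocyte marker called (edgeR, adjusted p = 0.0359). Markers of other cells were low. The 7 fibroblast markers summed to 38.2 to 119 CPM in WT and 11.0 to 46.5 in B3AR-Tg, where 4 of 6 tested fell in B3AR-Tg (edgeR, adjusted p under 0.05). The 7 endothelial markers summed to 78.7 to 126 CPM in WT and 36.9 to 150 in B3AR-Tg, where 2 of 7 fell, and the 7 leukocyte markers to 4.03 to 10.5 and 0.706 to 5.49 CPM. Between 1 and 6 of the leukocyte markers were at 0 in each animal. Mural markers summed to 363 to 553 CPM in WT and 499 to 655 in B3AR-Tg. Abcc9, a potassium channel subunit that myocytes also express, made up most of these sums. Of the 7 mural markers, 2 had log2 fold changes above 0 and 5 below, among them Pdgfrb at -0.75 and Cspg4 at -0.64. Abcc9 rose and was the only mural marker called (edgeR, adjusted p = 0.0132). The part of these levels in the results below was not tested. In such bulk samples, fewer cells of a type and less RNA per cell cannot be told apart.

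In 2 cases a pair of rows shares almost all of its sequence, which limits what the counts can say, so these stretches are shown first. Ndufa12 is an accessory subunit of the matrix arm on chromosome 10 (chr10:94198720-94221443, plus strand, GRCm38). Its row Ndufa12-ps is a processed pseudogene on chromosome 5 (chr5:130188395-130188796, plus strand), left out of the members by name. Over 399 aligned coding bases the pair differed at 2 positions, A135G and T414C, counted from the first base of the Ndufa12 coding sequence with the Ndufa12 base first. The 120 bases from coding position 75 to 194 hold the first difference, shown in capitals.
Ndufa12: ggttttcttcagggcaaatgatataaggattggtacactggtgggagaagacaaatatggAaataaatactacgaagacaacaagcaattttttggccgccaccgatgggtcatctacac
Ndufa12-ps: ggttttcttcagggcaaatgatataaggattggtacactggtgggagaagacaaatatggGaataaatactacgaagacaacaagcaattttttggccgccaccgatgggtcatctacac
Ndufb4, an accessory subunit of the distal membrane arm (chr16:37647170-37654453, minus strand), and the member Ndufb4c (chr15:73809507-73809896, minus strand, a processed pseudogene in GENCODE M21) were identical over all 387 coding bases of Ndufb4. Their shared first 120 coding bases are printed once.
Ndufb4 and Ndufb4c: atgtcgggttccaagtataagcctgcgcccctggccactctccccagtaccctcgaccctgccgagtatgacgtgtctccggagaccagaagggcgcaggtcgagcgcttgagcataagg

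In the counts, these copies were not silent rows. Salmon is named in the submitters' processing notes, and whether the whole numbers are rounded estimates, and how reads shared by both rows were assigned, is not given in the sources used here. The shares below, and the values of 0, are therefore those of the deposited table and may not be direct read counts. Ndufb4c held 58.8 to 68.3% of the counts of its pair, more than Ndufb4 itself in every animal. The Ndufa12-ps row was listed at 0 in WT animal 3 and B3AR-Tg animal 5, and in the other 14 animals it held 102 to 333 counts, up to 24.3% of its pair. Both rows of a pair therefore have uncertain levels, and their sums are given beside the single values below. For the other members, each similar row of the table (at least 90% identity over 120 coding bases) held no more than 0.140% of the member's counts.

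**Figure D1:**
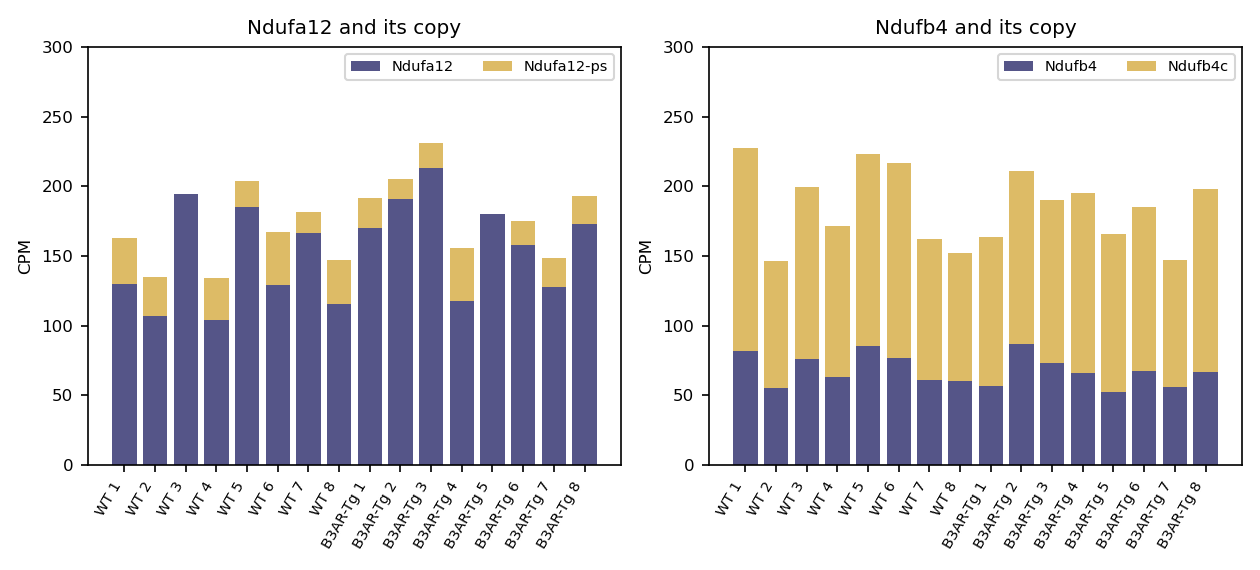
Level of Ndufa12 with Ndufa12-ps (left) and of Ndufb4 with Ndufb4c (right) in each of the 16 animals, as stacked bars in CPM. The Ndufa12-ps bar is missing in WT 3 and B3AR-Tg 5, where the Ndufa12 bar is among the tallest. The tallest Ndufa12 bar, in B3AR-Tg 3, has an Ndufa12-ps bar above it. Ndufb4c makes up 58.8 to 68.3% of every right-hand bar.

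Short sequence motifs of factors known from respiratory chain promoters were searched on both strands in windows from 250 bases before to 50 after the annotated start (RefSeq, GRCm38.p6). Windows were found for 40 of the 45 subunits and assembly factors, 35 windows for 33 subunits and 7 for 7 assembly factors. The YY1 motif AAGATGGCG was in 5 of 35 subunit windows (14.3%), against 1.40% of all 32851 windows. It was also in 1 of 7 assembly factor windows. All 6 matches lay on the coding strand between base 11 and base 44 of the transcript. The motif contains ATG, the letters of a start codon, and whether the matches cover start codons was not tested. The matches are printed with their neighbours, with the motif in capitals.
Ndufa9 (chr6:126849101-126849129, minus strand): aggcattgtgggagAAGATGGCGgccgcc
Ndufc1 (chr3:51408919-51408947, minus strand): ggagcctgcggaacAAGATGGCGccgtcc
Ndufs4 (chr13:114388045-114388073, minus strand): cgtttgcctacaggAAGATGGCGgcggtc
Ndufs6 (chr13:73328435-73328463, minus strand): caagggtcaccggcAAGATGGCGgcggtg
Ndufs7 (chr10:80249459-80249487, plus strand): tgaaggccgaggccAAGATGGCGgcgctg
Ndufaf8 (chr11:120098930-120098958, plus strand): aagaggcagggcccAAGATGGCGgcgccc
The palindromic NRF1 motif of 10 bases was in 1 subunit window (Ndufa11; 2.86%) and 2 assembly factor windows (Ndufaf4 and Ndufaf5), against 0.971% of all windows. The ETS motif CCGGAAGT was in 1 subunit window (Ndufs3), against 3.89% of all windows, and the ERR motif TCAAGGTCA in none, against 0.423%. The motifs searched do not overlap one another in these matches. A match is a description of the letters and not evidence of binding.

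The question of the comparison is whether myocytes of B3AR-Tg animals differ from those of WT littermates in the transcripts of complex I under pressure load. No subunit and no assembly factor passed the test. With edgeR's quasi-likelihood test and Benjamini-Hochberg adjustment over all 10945 tested genes, 0 of 37 subunits and 0 of 8 assembly factors had an adjusted p under 0.05, where 4.91% of all tested genes (537) did, 2.03% higher and 2.88% lower in B3AR-Tg. When libraries were scaled by their totals alone, 346 of 511 genes called were higher, against 222 of 537 with TMM factors. At an unadjusted p under 0.05, 3 subunits (Ndufs1, Ndufv1 and Ndufb11) were on the higher side, 0 on the lower side and 0 assembly factors on either, against 19.3% of tested genes, 8.71% higher and 10.6% lower. This count depended on the scaling, with 10 subunits and 1 assembly factor at library size only, and 6 subunits and 0 assembly factors with an offset for transcript length. The values of the genotypes overlapped for each of the 47 members. Over all tested genes, 0.448% (49) had groups that did not overlap.

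The differences were small as well as uncalled. The log2 fold change of B3AR-Tg over WT ran from -0.15 (Ndufb1) to 0.27 (Ndufv1) over the subunits, and 25 of 37 lay within 0.1 of 0. Their median was 0.03, with 27 above 0 and 10 below, beside a median of 0.01 and 51.1% above 0 over all tested genes. The sign count moved both ways with single animals. Without WT animal 2 or without B3AR-Tg animal 3, 19 of the 37 subunits were above 0. Without B3AR-Tg animal 7, 32 were. The other fits that left out 1 animal gave 23 to 31. The assembly factors had a median of -0.05, with 3 above 0 and 5 below. Standard errors of the subunits were 0.08 to 0.14, and the outermost bounds of their 95% intervals corresponded to folds of 0.774 and 1.45. For the assembly factors these bounds were 0.744 and 1.44.

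**Figure D2:**
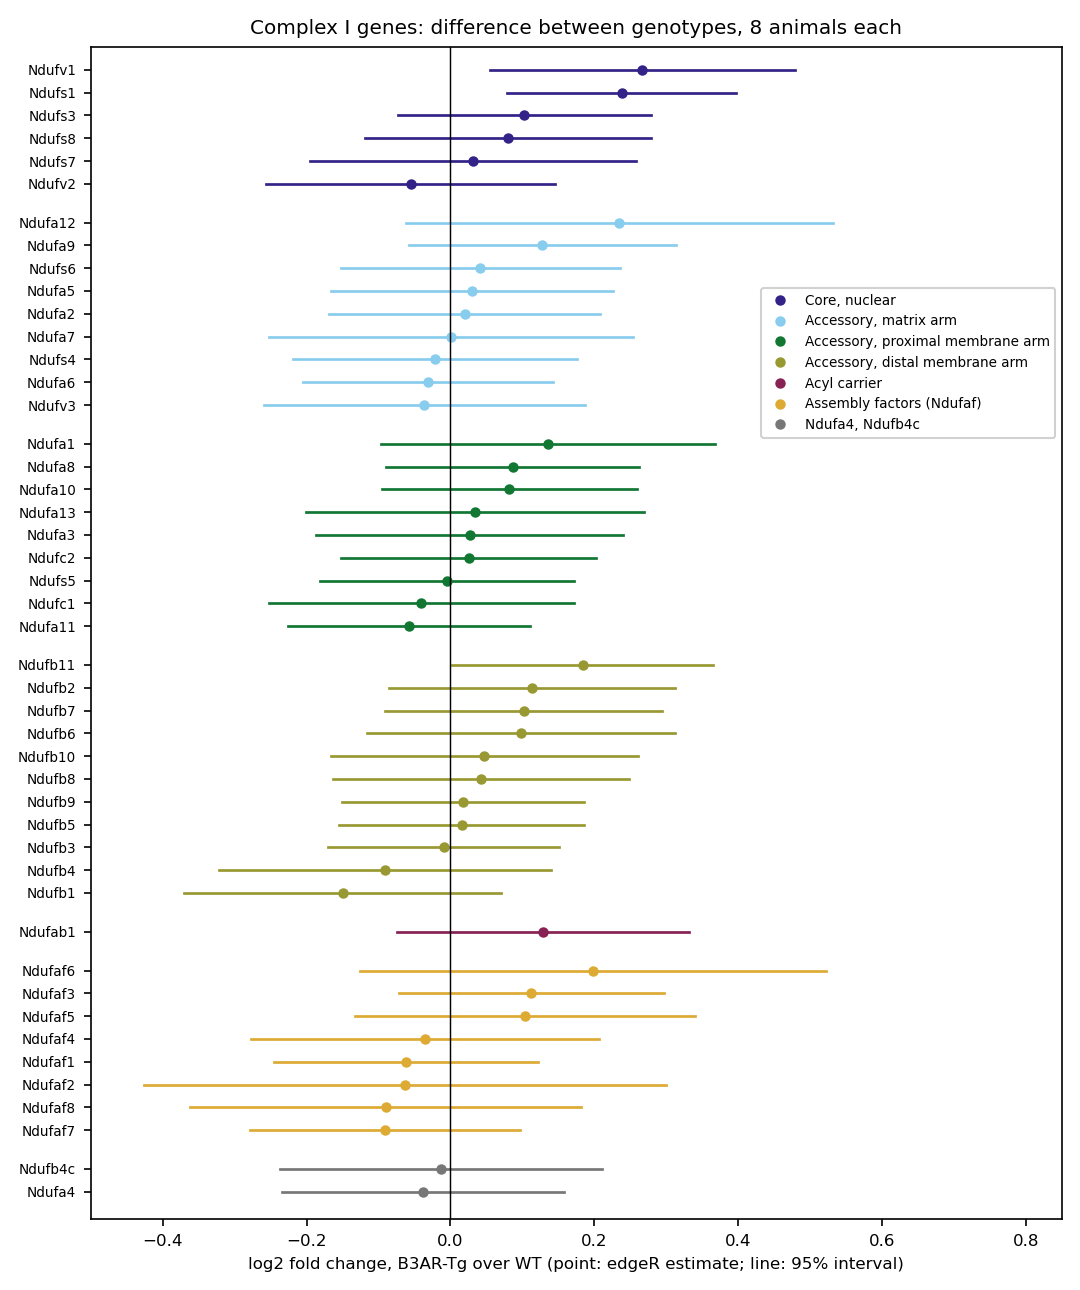
Log2 fold change of B3AR-Tg over WT for 46 of the 47 members, grouped by role, with 95% intervals over 8 animals per genotype. Points lie between -0.15 and 0.27, the intervals of Ndufs1, Ndufv1 and Ndufb11 do not reach 0, and no member had an adjusted p under 0.05.

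Of the 7 nuclear-encoded core subunits, 6 had values above 0 and 1 below, with a median log2 fold change of 0.10. The 2 subunits with the highest estimates, Ndufv1 and Ndufs1, both belong to the NADH-oxidising end of the matrix arm. Other subunits of the matrix arm varied, with Ndufv2 at -0.06, Ndufs4 at -0.02, Ndufs6 at 0.04 and Ndufa12 at 0.23. With its copy summed, Ndufa12 was at 0.16. Differences between these subunits were not tested. Ndufs1 (chr1:63143596-63176833, minus strand, GRCm38), the large subunit that carries several iron-sulfur clusters, ranged from 637 to 791 CPM with a median of 676 in WT, and from 691 to 929 with a median of 829 in B3AR-Tg. All 8 transgenic animals exceeded the WT median and 5 the highest WT animal, while B3AR-Tg animals 4, 6 and 7 lay within the WT range. The means were 699.7 ± 58.3 and 825 ± 76.4 CPM (SD, n = 8 each). The log2 fold change was 0.24 ± 0.08 (± SE here and below), and edgeR gave an adjusted p of 0.0776. It is the only member whose call depended on the tool: DESeq2 gave 0.24 with an adjusted p of 0.0185, and limma voom an adjusted p of 0.0611. Over all alternatives its adjusted p ran from 0.0185 to 0.224.

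Ndufv1 (chr19:4007384-4012806, minus strand), which binds NADH and the flavin, ranged from 397 to 526 CPM with a median of 445 in WT, and from 391 to 669 with a median of 586 in B3AR-Tg. Its spread in B3AR-Tg was wide, since 5 animals exceeded every WT animal and animal 7 was below all of them. The log2 fold change was 0.27 ± 0.10 (edgeR, adjusted p = 0.144). Without B3AR-Tg animal 7, Ndufv1 and Ndufs1 both passed, with log2 fold changes of 0.33 and 0.27 and adjusted p-values of 0.0378 and 0.0375, and these were the only subunits called in any of the 16 fits that left out 1 animal.

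Ndufs7, which helps to form the ubiquinone site, had medians of 137 and 138 CPM and a log2 fold change of 0.03. Ndufs3 and Ndufs8, which link the ubiquinone site to the rest of the matrix arm, had log2 fold changes of 0.10 and 0.08. Ndufv2, the iron-sulfur partner of Ndufv1, was the single core subunit below 0, at -0.06 (edgeR, adjusted p = 0.805), with 400.0 to 621 CPM in WT and 434 to 591 in B3AR-Tg. Differences between core subunits were not tested.

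**Figure D3:**
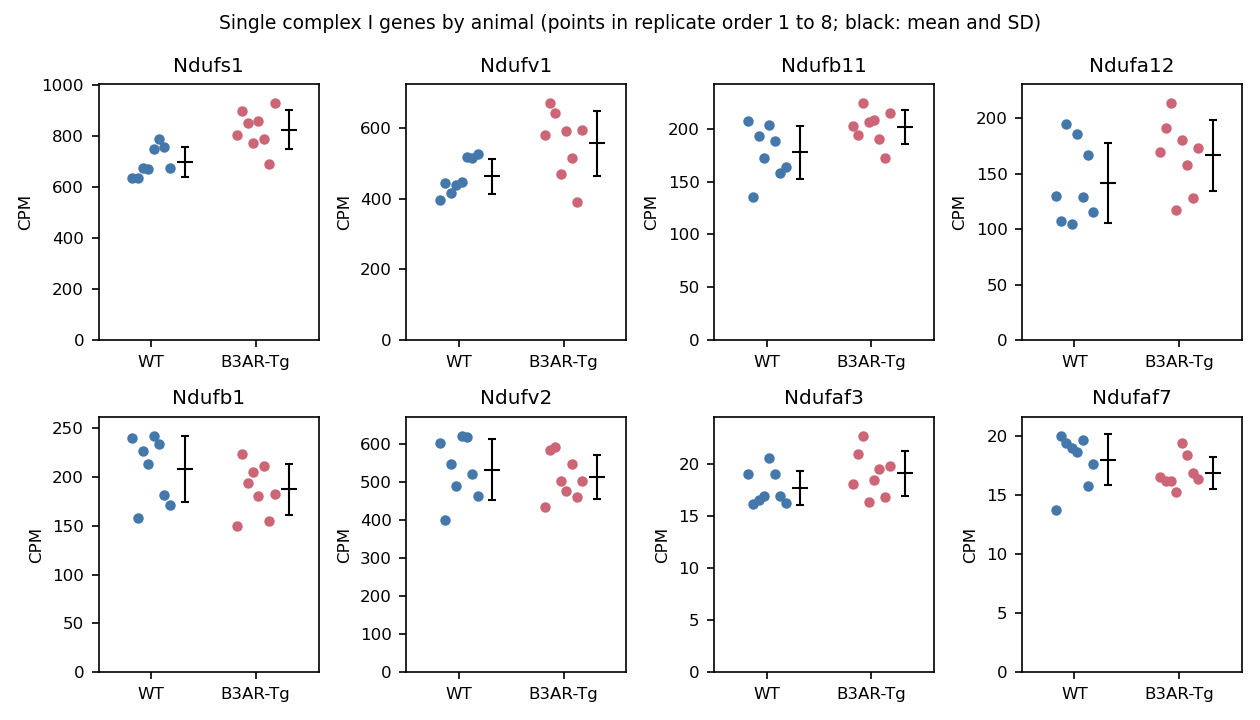
CPM in each animal for Ndufs1, Ndufv1, Ndufb11, Ndufa12, Ndufb1, Ndufv2, Ndufaf3 and Ndufaf7, with the mean and SD of each genotype in black, on axes from 0. For Ndufs1 and Ndufv1, 5 B3AR-Tg animals lie above every WT animal, and in all 8 panels the genotypes overlap.

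Among the 9 accessory subunits of the matrix arm, the median was 0.02, with 6 above 0 and 3 below. Ndufa12, which sits where the assembly factor Ndufaf2 is thought to hold its place, had the highest estimate, 0.23 ± 0.14 (edgeR, adjusted p = 0.393). WT animals had 104 to 195 CPM and B3AR-Tg animals 118 to 213. How reads were divided between Ndufa12 and the row Ndufa12-ps is not known. WT animal 3 and B3AR-Tg animal 5, with no counts on Ndufa12-ps, had 195 and 180.2 CPM on Ndufa12. B3AR-Tg animals 2 and 3 and WT animal 5, with 166, 171 and 139 counts on Ndufa12-ps, had 191, 213 and 185. The remaining animals were lower. With both rows summed, the log2 fold change was 0.16 (edgeR, adjusted p = 0.426). Ndufs4 and Ndufs6, which stabilise the NADH-oxidising end, were at -0.02 and 0.04. Ndufa9, which binds NADPH near the ubiquinone site, was at 0.13, and the remaining 5 (Ndufv3, Ndufa6, Ndufa7, Ndufa2 and Ndufa5) lay between -0.04 and 0.03.

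The 9 accessory subunits of the proximal membrane arm had a median of 0.03, again with 6 above 0 and 3 below. Ndufa1 was at 0.14 and Ndufa11, which lies at the contact with complex III in supercomplexes, at -0.06 (edgeR, adjusted p = 0.748). Ndufa13, also known as GRIM-19, and Ndufa10, a nucleoside kinase relative, were at 0.03 and 0.08. Ndufc1, a small membrane subunit, was at -0.04, with a median of 102 CPM in both genotypes. Ndufc2 and Ndufa3 were at 0.03 each, Ndufa8 at 0.09, and Ndufs5 within 0.1 of 0.

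In the distal membrane arm, 8 of 11 accessory subunits were above 0 and 3 below, with a median of 0.04. The group held both the lowest estimate of all subunits and one of the 3 unadjusted signals. Ndufb11 (chrX:20615326-20617619, minus strand), a single-pass membrane subunit, ranged from 135 to 207 CPM with a median of 180.3 in WT and from 172 to 224 with a median of 204 in B3AR-Tg. Above the WT median lay 7 of the 8 transgenic animals. Its log2 fold change was 0.18 ± 0.09 (edgeR, adjusted p = 0.252). Ndufb1 (chr12:101968090-101977068, minus strand), a small subunit of the same arm, ranged from 157 to 242 CPM with a median of 219.6 in WT and from 149.6 to 223 with a median of 188 in B3AR-Tg. Above the WT median lay 1 transgenic animal, and the log2 fold change was -0.15 ± 0.11 (edgeR, adjusted p = 0.461). GENCODE M21 lists this gene ID as a noncoding gene under the symbol Ndufb1-ps, while the deposited table names it Ndufb1. Ndufb4 was at -0.09 (edgeR, adjusted p = 0.70) and Ndufb4c at -0.01, and their sum was at -0.04 (edgeR, adjusted p = 0.871). The other 8 members of the arm ran from -0.01 (Ndufb3) to 0.11 (Ndufb2). Ndufab1, the mitochondrial acyl carrier protein and the only subunit that sits in both arms, was at 0.13 (edgeR, adjusted p = 0.499).

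The 8 Ndufaf assembly factors act at different steps. Ndufaf3, which works with Ndufaf4 on the ubiquinone module, had 16.1 to 20.7 CPM in WT and 16.4 to 22.8 in B3AR-Tg, with a log2 fold change of 0.11 (edgeR, adjusted p = 0.515). Ndufaf6, also an early factor, was at 0.20 ± 0.16 (edgeR, adjusted p = 0.516), and had 6.61 to 11.4 and 7.16 to 14.9 CPM. Ndufaf7, a methyltransferase of the matrix, had 13.8 to 20.1 CPM with a median of 18.9 in WT and 15.3 to 19.5 with a median of 16.5 in B3AR-Tg. Of the 8 transgenic animals, 1 exceeded the WT median of Ndufaf7, and the log2 fold change was -0.09 (edgeR, adjusted p = 0.620). The other 5 (Ndufaf1, Ndufaf2, Ndufaf4, Ndufaf5 and Ndufaf8) lay between -0.09 and 0.10. Of 12 further assembly factors outside the Ndufaf series, 11 were tested and 0 passed. They included Acad9 (0.00) and Ecsit (-0.02), partners of Ndufaf1 in the membrane assembly complex, and Aifm1 (0.18; unadjusted p = 0.0375 and adjusted p = 0.228 in edgeR), which takes part in the import of complex I subunits.

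Levels per transcript length differed more between members than between genotypes. Taking CPM per kilobase of the annotated transcript, the subunits in WT ran from 42.3 (Ndufab1) to 747 (Ndufb9), a 17.7-fold span, with a median of 204 in WT and 209 in B3AR-Tg. Ndufb8 followed Ndufb9 with 668. No subunit changed its place in this order by more than 4 ranks between genotypes. The low end depends on the transcript chosen. With the shortest annotated principal transcript, Ndufab1 was at 73.1. Ndufb4, whose coding bases are identical in Ndufb4c, was then lowest at 72.2. Ndufa4, the cytochrome c oxidase subunit, was above all of them at 1068 in WT. It had a log2 fold change of -0.04 between genotypes (edgeR, adjusted p = 0.870). The assembly factors were lower, from 7.75 (Ndufaf6) to 41.4 (Ndufaf1), with a median of 13.9 in both genotypes.

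The subunits varied together between animals of one genotype. For each animal, each subunit's log2 CPM was taken relative to its average over the 16 animals, and the mean of these deviations over the 37 subunits ran from -0.30 (animal 2) to 0.15 (animal 6) in WT and from -0.26 (animal 7) to 0.27 (animal 3) in B3AR-Tg. WT animal 2 had the lowest WT value for 27 of the 37 subunits, and B3AR-Tg animal 7 the lowest of its group for 24. B3AR-Tg animal 3 had the highest of its group for 25. The standard deviation within a genotype had a median of 0.19 over the subunits, and of 0.11 after the animal mean was taken off, beside 0.28 over all tested genes. The animal mean itself had a pooled SD of 0.15. This is a spread between animals within a genotype, not the error of a genotype difference. The standard errors of the subunit differences were 0.08 to 0.14.

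**Figure D4:**
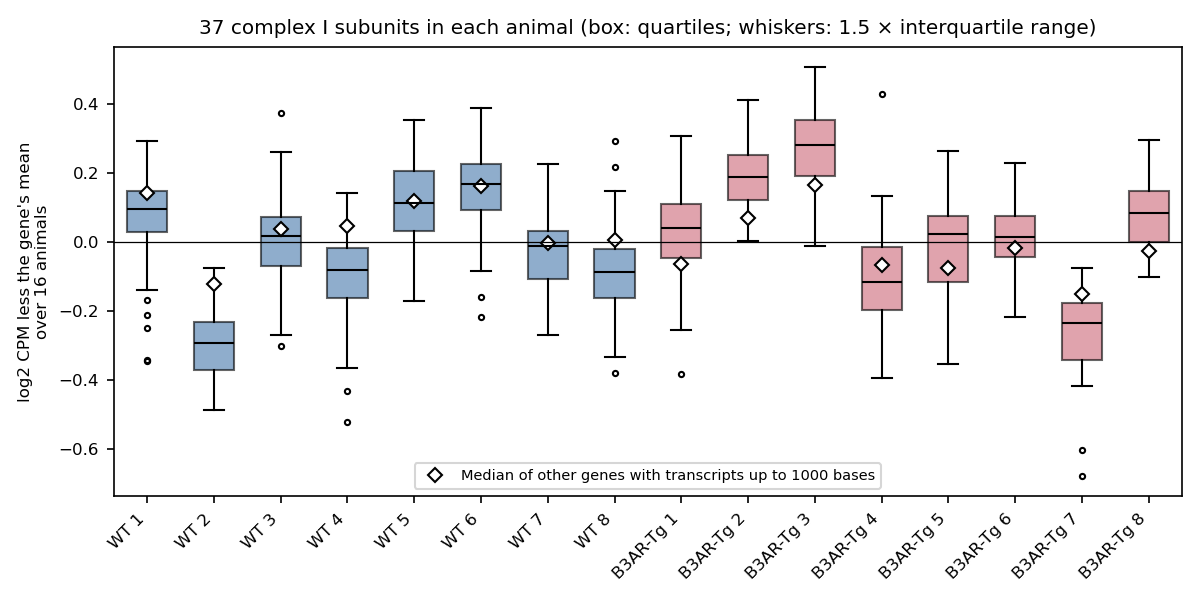
Deviation of the 37 subunits from their means in each animal (boxes: quartiles, on the log2 scale), with the median of other genes with transcripts up to 1000 bases as diamonds. WT 2 and B3AR-Tg 7 lie lowest and B3AR-Tg 3 highest, and the diamonds move the same way in these 3 animals.

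Other short transcripts moved with these animals. Other genes with transcripts of up to 1000 bases had a median deviation of -0.12 in WT animal 2, -0.15 in B3AR-Tg animal 7, 0.17 in B3AR-Tg animal 3 and 0.16 in WT animal 6. In WT animals 4 and 8, with subunit means of -0.10 and -0.09, this median was 0.05 and 0.01. Nppa, the natriuretic peptide gene that marks load on the heart muscle, was high in some of the animals with low subunit means. The 3 WT animals with the lowest subunit means (2, 4 and 8) had its 3 highest WT levels, 1240, 1076 and 1349 CPM, against 78.4 to 330 CPM in the other 5. B3AR-Tg animal 7 had the highest Nppa level of its group, 120 CPM, although B3AR-Tg animal 3 was second with 50.3. B3AR-Tg animal 4, also with a low subunit mean (-0.10), had 24.4 CPM. The part of transcript length and of load in the spread of the subunits was not tested.

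Transcript length also went with the genotype difference over all genes. The 956 tested genes with transcripts up to 1000 bases had a median log2 fold change of -0.06 and 37.8% above 0, and the 5143 genes with transcripts over 3000 bases a median of 0.03. Of the subunits, 24 fall in the shortest class, where 17 were above 0 and the median was 0.03. The 11 subunits of the next longer class had a median of 0.10, and the 2399 genes of that class one of 0.00. Across the 37 subunits, the log2 fold change had a Pearson r of 0.39 with log2 transcript length and a Spearman rho of 0.30. Both are given as a description, since these genes share their libraries. Lengths in this paragraph are those of the shortest annotated principal transcript. With an offset for transcript length, 32 of 37 subunits were above 0 and 0 were called.

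**Figure D5:**
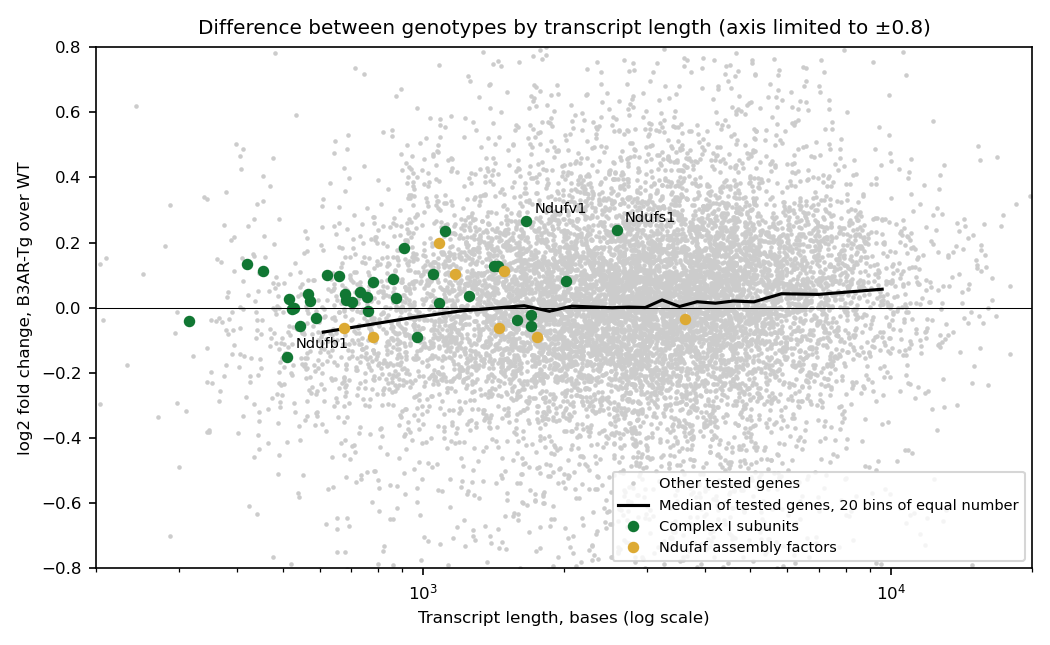
Log2 fold change of B3AR-Tg over WT against transcript length (log axis) for the tested genes, with 36 of the 37 subunits in green, the Ndufaf assembly factors in yellow and the median of tested genes as a line. The line lies below 0 for the shortest transcripts and above 0 for the longest, and Ndufv1 and Ndufs1 are among the longer subunits.

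The mitochondrially encoded core subunits, mt-Nd1 to mt-Nd6 and mt-Nd4l, form the proton-pumping base of the membrane arm. In edgeR 0 of these 7 genes passed the test and 2 (mt-Nd1 and mt-Nd3) had an unadjusted p under 0.05, both on the lower side. Of the 7, 6 had values below 0 and 1 above, and the log2 fold changes ran from -0.37 (mt-Nd3; edgeR, adjusted p = 0.101) to 0.10 (mt-Nd6), with a median of -0.21. For mt-Nd3 the 8 B3AR-Tg animals, at 1192 to 1638 CPM, were all below the WT median of 1927, but WT animal 2 was the lowest of all at 1182. The summed CPM of the 7 genes was 1.84 to 4.38 times the sum of the nuclear subunits in WT and 1.20 to 3.41 times in B3AR-Tg. These ranges overlap widely, and the ratio compares levels that are not per length.

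Complex II, which feeds the same ubiquinone pool from succinate, and the regulators of respiratory chain genes are given for comparison. Sdha, the flavin subunit of complex II, rose from 592 ± 73.2 to 765 ± 98.1 CPM (SD, n = 8 each), a log2 fold change of 0.37 ± 0.09 (edgeR, adjusted p = 0.0249). All 8 transgenic animals exceeded the WT median of Sdha and 6 the highest WT animal. The other 3 subunits did not pass, with Sdhc at 0.27 (edgeR, adjusted p = 0.0557), Sdhb at 0.08 and Sdhd at 0.05. The call of Sdha was lost when WT animal 1, 4 or 8 or B3AR-Tg animal 5 was left out, with adjusted p-values of 0.0501 to 0.0593 in edgeR. Whether Sdha differed from the complex I subunits was not tested.

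Of 7 regulators, 2 rose and 5 did not pass. Ppargc1a (PGC-1alpha), a coactivator of mitochondrial gene expression, had 67.5 to 110.2 CPM with a median of 87.1 in WT and 89.8 to 290.1 with a median of 118 in B3AR-Tg. The log2 fold change was 0.74 ± 0.20 (edgeR, adjusted p = 0.0384). Its 8 B3AR-Tg animals were all above the WT median, with animals 1 and 3 far above the rest. Ppargc1b, its relative, rose with a log2 fold change of 0.47 ± 0.13 (edgeR, adjusted p = 0.0356), with 4.68 to 8.05 CPM in WT and 7.87 to 11.8 in B3AR-Tg. Both calls were close to the threshold. Leaving out single animals ended the call of Ppargc1a in 10 of 16 fits (WT animals 2, 4, 5, 6, 7 and 8, B3AR-Tg animals 1, 3, 5 and 6; adjusted p-values of 0.0513 to 0.0721 in edgeR). It ended the call of Ppargc1b in 8 (WT animals 1, 2, 4 and 8, B3AR-Tg animals 2, 3, 4 and 5; 0.0514 to 0.0850). Esrra, the nuclear receptor ERR-alpha that works with them, was at 0.28 (edgeR, adjusted p = 0.0821). Nrf1, Gabpa and Yy1, whose motifs were searched above, were at 0.02, 0.02 and 0.04, and Tfam, which packages mitochondrial DNA, at -0.10.

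The load markers of the same animals had larger log2 fold changes than any complex I gene. All 5 (Nppa, Nppb, Myh7, Acta1 and Ankrd1) fell, with log2 fold changes of -3.99 for Nppa, -2.03 for Myh7, -1.74 for Acta1, -1.16 for Ankrd1 and -1.13 for Nppb and adjusted p-values in edgeR of 0.00362 to 0.0245. The calls of Nppb (without WT animal 4 or B3AR-Tg animal 5; adjusted p-values of 0.0507 and 0.0532 in edgeR) and Acta1 (without WT animal 2 or B3AR-Tg animal 5; 0.0530 and 0.0562) were lost when 1 animal was left out. The subunits of complex I, measured in the same libraries, had no call in either direction.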

How the data were processed

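The deposited table gives counts in whole numbers for every gene in each animal, with totals that differ between animals. Per the submitters' processing notes the build GRCm39 and the tool Salmon were used. Their roles, versions, the strand setting, and whether the counts are rounded estimates are not given in the sources used here. Per the labels' protocols, libraries were made from 500 ng of RNA after ribosomal depletion with a stranded kit and read from both ends. Each column matched 1 animal by the name in its title, and all 16 titles name separate biological replicates, 8 per genotype.

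For the comparison, edgeR 4.0.16 in R 4.3.3 (glmQLFit and glmQLFTest) was run on the counts as deposited, with genotype as the only term, TMM factors and filterByExpr (minimum count 10, minimum total count 15). P-values are two-sided, Benjamini-Hochberg adjustment covered the 10945 genes tested, and the threshold was 0.05. Standard errors are not an output of this test. They were derived as the absolute log2 fold change over the square root of the F statistic. The 95% intervals were formed from them with quantiles of the t distribution. The fitting code was tested on simulated data first. Totals of 5985335 to 14365864 counts put the floor of 3 counts at 0.201 to 0.487 CPM, for counting error only. Positions, transcript lengths and copies (BLAST 2.17.0) came from GENCODE M21 on GRCm38, matched by gene ID for 35394 genes of the table. Promoter windows came from RefSeq.

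Named in the text were members past the threshold, the 5 subunits with the smallest p in each direction, the 3 assembly factors with the smallest p, the core subunits, Ndufa4, Ndufa4l2, the highest and lowest subunit per length, those beside the mean count threshold, and members of the comparison lists past the threshold. A gene covered by this rule is not reported here. Further members were named to complete the roles, after their values were seen. The members and lists were chosen with earlier results of these data known. Alternatives were other scalings, no filter, DESeq2 1.42.0, limma voom 3.58.1, a replicate block, a threshold of 0.10, removal of mitochondrial genes or of each animal, and, added after seeing the data, summed copies and an offset for transcript length.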

Additional observations from a re-analysis of the deposited data

Results flagged for a closer look

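Of 94 groups of 8 animals (47 members in 2 genotypes), 3 held an animal whose gap to its nearest neighbour, divided by the range of the group, both on the scale log2(CPM + 0.1), exceeded Dixon's 95% critical value for 8 animals. Chance gives about 1 in 20, or 4.7 groups here. Ndufa11 in WT animal 8 was high, at 135 CPM against 118 in the next animal (ratio 0.527, and 0.559 on the CPM scale). Ndufa13 in B3AR-Tg animal 7 was low, at 141 CPM against 205 (ratio 0.561, but 0.478 on the CPM scale, under the critical value). Ndufaf8 in B3AR-Tg animal 7 was low, at 6.15 CPM (79 counts) against 11.2 (ratio 0.705, and 0.613 on the CPM scale). B3AR-Tg animal 7 also had the lowest subunit mean of its genotype.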

How the results depend on the processing

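No Ndufaf assembly factor was called in either direction and no subunit was called lower under any of the 26 alternatives. The count of subunits called higher was 0 in the main analysis and 1 with library size only, with DESeq2 and at an adjusted p under 0.10 (Ndufs1 each time), and 0 to 2 when 1 animal was left out (2 without B3AR-Tg animal 7). Over all tested genes, 537 calls became 840 with DESeq2, 908 at an adjusted p under 0.10 and 230 with the replicate block, and 272 to 675 when 1 animal was left out (272 without WT animal 4, 277 without B3AR-Tg animal 5, 345 without B3AR-Tg animal 8). Same-numbered animals had correlations of -0.22 to 0.09, 0 of 8 over 0.1, and 0 WT animals matched their own number best. Pairing by number did not show in these correlations, which were weak and cannot settle it. With the block the smallest adjusted p of a subunit was 0.224, and the calls of Sdha (0.0972), Ppargc1b (0.0679) and Ankrd1 (0.0520) were lost. The call of Ppargc1a was also lost with limma voom (0.0614) and with the length offset (0.0557), and that of Ppargc1b with no filter (0.0510). The cause was not tested.

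The median log2 fold change of the subunits was 0.00 to 0.09 without single animals and 0.03 to 0.12 otherwise, and that of the assembly factors -0.08 to 0.03 and -0.05 to 0.03. With library size only, which moved the median of all genes to 0.08, 35 of 37 subunits were above 0. Without WT animal 2 or B3AR-Tg animal 3 it was 19 of 37, and without B3AR-Tg animal 7 it was 32 of 37. Of the 21 members that the naming rule covers (those named only to complete a role were not followed through the alternatives), 13 kept their sign in all 25 fits and 8 changed it. With library size only, Ndufa11 was at 0.0208, Ndufv2 at 0.0310, Ndufc1 at 0.0410, Ndufa4 at 0.0479, Ndufaf2 at 0.0125 and Ndufb4c at 0.0768. With the length offset, Ndufa11 was at 0.0129, Ndufc1 at 0.0753, Ndufa4 at 0.0603, Ndufaf2 at 0.0018 and Ndufb4c at 0.10. Ndufb4c was at 0.0055 with no low-count filter, 0.0023 with limma voom and 0.00089 with the replicate block. Without single animals the ranges were -0.0185 to 0.0508 for Ndufb9, -0.0214 to 0.0869 for Ndufs7, -0.0943 to 0.00671 for Ndufc1, -0.122 to 0.0583 for Ndufaf2 and -0.0572 to 0.0377 for Ndufb4c. Every member had a mean count of at least 67.9. The data are RNA levels at 1 time after TAC.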
